A study of Mus musculus with 9 samples.

Results

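The GIMAP genes (GTPases of immunity-associated proteins) were followed in mouse thymocytes before and after transformation by active β-catenin. Members were taken as every probe set whose single gene symbol was Gimap1, Gimap3, Gimap4, Gimap5, Gimap6, Gimap7, Gimap8 or Gimap9. This gave 11 of the 45037 probe sets on the array that are not controls and 8 of the 18193 genes they name. All 8 genes passed the filter on dim probe sets and were among the 11644 genes tested. The tumour group held 4 thymic tumours of C57Bl/6 mice of genotype R26NC/NC CD4Cre+, aged 28, 26, 23 and 21 weeks (tumours 1 to 4), with at least 95% CD8+CD4+ cells and no sort. The pre-transformed group held sorted CD8+CD4+ double-positive (DP) thymocytes of 3 mice of the same strain and genotype aged 6 weeks, and the control group those of 2 R26NC/NC CD4Cre- mice aged 6 weeks, both at a purity over 98%. All groups thus carried the R26NC allele, and controls lacked CD4Cre, a Cre recombinase transgene under the Cd4 promoter, so that the active β-catenin was present in the CD4Cre+ mice. Tumours were taken from sick mice, and pre-transformed mice still had a thymus of normal size. Each array read the RNA of 1 mouse, and precision is set by how few arrays each group has.

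GIMAP proteins are small GTP-binding proteins of lymphocytes, related to the septin and dynamin GTPases, and several sit on the membranes of organelles such as the endoplasmic reticulum and lysosomes. They are known for controlling how long lymphocytes survive: rats and mice without functional Gimap5 lose most of their T cells, and mice without Gimap1 lose mature T and B cells. In thymocytes their levels are known to shift as cells pass through selection. The genes stand side by side on mouse chromosome 6, in the order Gimap8, Gimap9, Gimap4, Gimap6, Gimap7, Gimap1, Gimap5 and Gimap3, and the RefSeq annotation of GRCm38.p6 places 0 other protein-coding genes between them.

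The family did not move as 1 block. In tumours 5 of the 8 genes were lower than in pre-transformed cells (Gimap8, Gimap6, Gimap5, Gimap1 and Gimap9), 1 was higher (Gimap4) and 2 were not called (Gimap3 and Gimap7). Of all genes tested, 31.0% were called lower and 23.9% higher in the same comparison. The gene that rose stands between genes that fell. The promoter windows shown here belong to Gimap4, the gene that rose, to Gimap8, which fell strongly, and to Gimap6 and Gimap5, whose signals followed each other most closely. They are RefSeq sequences of GRCm38.p6, from 250 bases before to 50 bases after the annotated start, 5′ to 3′ on the gene's strand. Capitals mark GGAAGT, a core that ETS family factors bind, as read on either strand.
Gimap4, chr6:48684328-48684627, plus strand: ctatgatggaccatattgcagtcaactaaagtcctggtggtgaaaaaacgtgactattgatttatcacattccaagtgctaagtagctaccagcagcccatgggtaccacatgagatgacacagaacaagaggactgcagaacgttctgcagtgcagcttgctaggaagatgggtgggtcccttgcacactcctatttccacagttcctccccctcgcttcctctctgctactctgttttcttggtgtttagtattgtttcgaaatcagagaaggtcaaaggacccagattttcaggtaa
Gimap8, chr6:48646984-48647283, plus strand: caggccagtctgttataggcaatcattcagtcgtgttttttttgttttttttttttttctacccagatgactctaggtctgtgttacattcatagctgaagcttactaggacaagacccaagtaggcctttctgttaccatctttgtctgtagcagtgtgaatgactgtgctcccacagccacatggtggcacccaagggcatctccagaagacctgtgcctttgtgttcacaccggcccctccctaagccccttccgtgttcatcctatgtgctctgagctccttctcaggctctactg
Gimap6, chr6:48708195-48708494, minus strand: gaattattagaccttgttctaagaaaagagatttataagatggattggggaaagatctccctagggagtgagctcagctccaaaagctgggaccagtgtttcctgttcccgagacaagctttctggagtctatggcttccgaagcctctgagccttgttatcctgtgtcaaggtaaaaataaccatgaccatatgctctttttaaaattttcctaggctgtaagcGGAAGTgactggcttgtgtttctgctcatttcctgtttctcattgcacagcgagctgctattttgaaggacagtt
Gimap5, chr6:48745947-48746246, plus strand: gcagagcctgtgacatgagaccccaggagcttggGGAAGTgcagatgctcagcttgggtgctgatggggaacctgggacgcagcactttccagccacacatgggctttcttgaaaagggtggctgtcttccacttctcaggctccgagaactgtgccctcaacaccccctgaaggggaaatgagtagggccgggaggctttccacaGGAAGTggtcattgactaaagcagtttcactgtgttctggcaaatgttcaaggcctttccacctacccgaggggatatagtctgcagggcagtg

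All 8 genes had a window, with 2 overlapping windows for Gimap8 and 9 windows in all. The letters GGAAGT were in 4 of the 9, those of Gimap9, Gimap6, Gimap1 and Gimap5, and in 23.8% of 32851 windows of the same length in the table. In Gimap6 the match began 25 bases before the start, and Gimap5 had matches 216 and 44 bases before it. The windows of Gimap8, Gimap4, Gimap7 and Gimap3 did not hold these letters. The TCF and LEF letters CTTTGA were in the windows of Gimap4 and Gimap7 (16% of all windows) and the RUNX letters TGTGGT in those of Gimap4, Gimap7 and Gimap1 (16.8% of all windows). The letters TGGGAA, bound by the Notch partner RBPJ, were in the window of Gimap3 alone among members (25.6% of all windows). An E-box, CANNTG, was in 7 of the 9 member windows (72.3% of all windows), and the GATA letters AGATAA were in 0 of them (11.2% of all windows). None of the 21 matches to the other motifs overlapped a GGAAGT match. A match to letters is a description of these windows and was set against no binding data.

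Cd4 and Cd8a, the coreceptor genes that define DP cells, were bright in every group. They read 1008 to 1725 and 2056 to 2946 on tumour arrays, 832 to 1109.8 and 3709.9 to 3931 on pre-transformed arrays, and 707 to 738 and 3596 to 3635 on control arrays. Signals are MAS5 values on a linear scale, on which the median probe set of an array read 9.9 to 15.2. A signal under the 65th percentile of its array (28.5 to 44.6) is called dim here. The tumours' RNA (2.5 µg) was labelled by a standard protocol, while that of sorted cells (0.1 µg) went through an amplification kit. Labelling, sorting and age therefore cannot be told apart from transformation in the tumour comparisons. The 3′ to 5′ log2 ratio of β-actin, a sign of RNA quality, was 0.54 to 1.14 on tumour arrays, 0.20 to 0.35 on pre-transformed arrays and 0.24 and 0.26 on control arrays. Its part in the changes below was not tested.

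**Figure D1:**
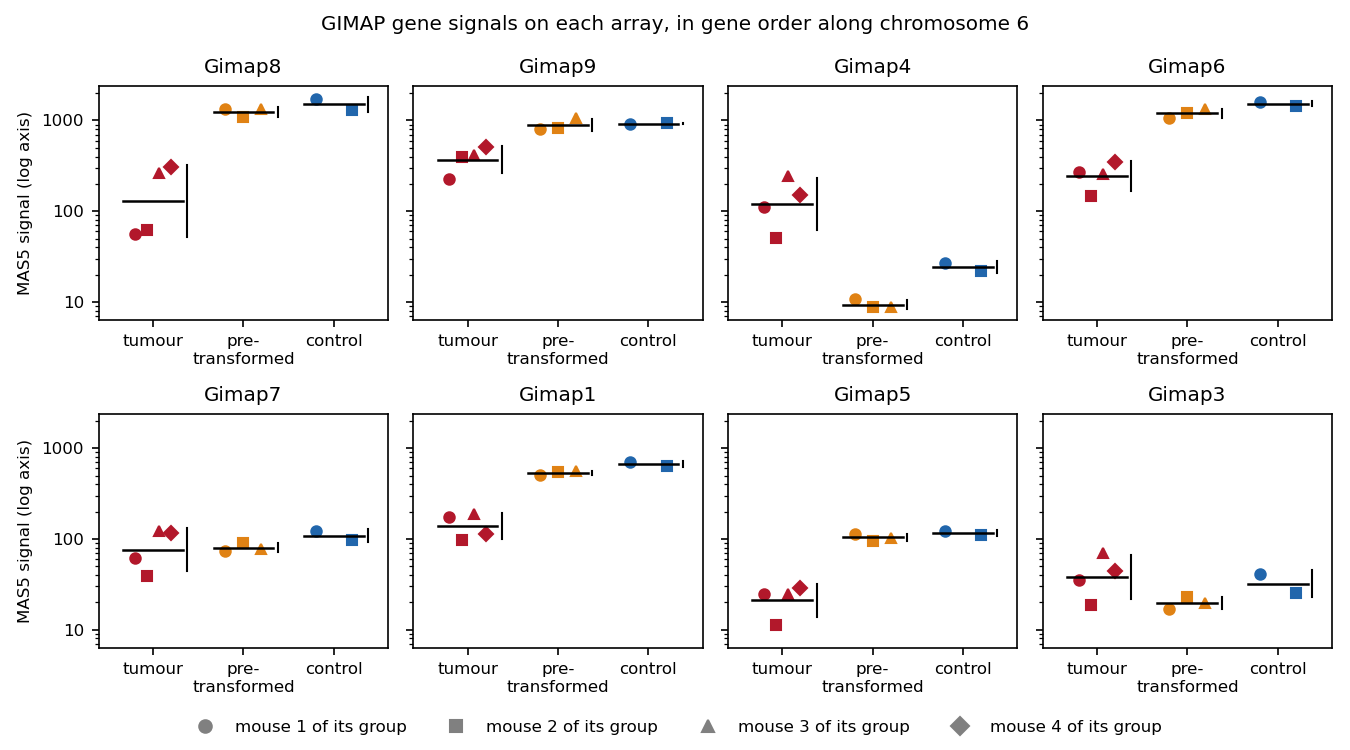
MAS5 signal (log axis) of each GIMAP gene on each of the 9 arrays, with panels in gene order along chromosome 6; points are mice, horizontal lines geometric means and vertical lines 1 SD of the log2 signal. Tumour signals lie below those of both sorted groups for Gimap8, Gimap9, Gimap6, Gimap1 and Gimap5 and above them for Gimap4.

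The comparison of tumours with pre-transformed thymocytes asks how GIMAP levels differ once CD4Cre+ cells have become tumours. Genes were tested with limma and called at an adjusted p under 0.05 over all 11644 genes tested. In this comparison 31.0% of all genes were called lower and 23.9% higher, 54.9% in all, against which the 5 lower and 1 higher of 8 members are to be read. The median log2 change of the 8 members was -1.61, beside -0.12 for all genes. With each array centred on the median of its kept probe sets these medians were -1.32 and 0.17, and the 5 lower genes and Gimap4 were called there too. Signals of the groups did not overlap for 6 of the 8 members and for 57.0% of all genes. In bulk RNA, fewer cells that express a gene and less RNA per cell cannot be told apart.

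Gimap8, which encodes an unusually long member with several GTP-binding domains, read 56.8, 62.5, 261 and 309.5 in tumours 1 to 4, against 1352, 1082 and 1345 in pre-transformed cells. No tumour came near the sorted cells, and the tumours themselves lay in a lower and an upper pair. The log2 change was -3.27 ± 0.57 SE, a 9.63-fold lower signal in tumours (adjusted p = 0.000908). Only 1.98% of all genes had a lower change. The SD among tumours was 1.31 on the log2 scale, above that of 90% of all genes, while the SD among pre-transformed arrays was 0.18.

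Gimap6, whose protein binds an ATG8 protein of autophagy, was read by a bright and a fainter probe set. The bright one gave 272, 145.6, 255 and 352 in tumours, against 1075, 1197 and 1339 in pre-transformed cells. Every tumour lay far under the lowest sorted array. The log2 change was -2.29 ± 0.26 SE, 4.91-fold lower in tumours (adjusted p = 7.53e-05). The fainter probe set read 19.3, 7.3, 34.4 and 38.7 in tumours, against 553, 270.0 and 354.5 in pre-transformed cells. All 4 of these tumour signals were dim, and the difference was at least 10.5-fold (adjusted p = 0.000237 with every kept probe set tested, of which 26.7% were lower). Both probe sets thus fell, the fainter one by more.

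Gimap5, the member whose loss depletes T cells in rats and mice, read 24.6, 11.4, 24.5 and 28.7 in tumours, against 113, 95.8 and 103.5 in pre-transformed cells. All tumour signals were dim, so the fall is a lower bound of 2.9-fold (log2 change -2.30 ± 0.32 SE, adjusted p = 0.000238). Gimap1, needed in mice for the survival of mature lymphocytes, read 174, 97.6, 189.7 and 113 in tumours, against 509, 547 and 564 in pre-transformed cells. The pre-transformed signals were tight, with an SD of 0.07 on the log2 scale, and every tumour lay under them. The log2 change was -1.97 ± 0.23 SE, 3.91-fold lower in tumours (adjusted p = 0.000103). Gimap9 had the smallest fall of those called. It read 227, 400, 412 and 510.1 in tumours, against 797, 828 and 1056 in pre-transformed cells. The groups did not overlap, and the log2 change was -1.26 ± 0.25 SE (adjusted p = 0.00193). Tumour 1 was the lowest for Gimap9, while tumour 2 was the lowest for 6 of the 8 genes.

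Gimap4, which in mouse T cells promotes the execution of apoptosis, went the other way. It read 110.5, 50.5, 243 and 153 in tumours, against 10.7, 8.7 and 8.8 in pre-transformed cells. Each tumour stood above every sorted array, and all sorted signals were dim. The rise was at least 2.74-fold (adjusted p = 0.000136). The fitted log2 change, 3.68 ± 0.46 SE, rests on dim signals of sorted cells, and for Gimap4 such fitted values give a direction and a test rather than a size. A further Gimap4 probe set read 71.2, 38.4, 120.0 and 84.2 in tumours, against 13.3, 4.7 and 7.7 in pre-transformed cells. It also rose, by at least 1.66-fold (adjusted p = 0.000484 with every kept probe set tested, of which 23.1% were higher).

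Gimap7, whose human counterpart stimulates GTP hydrolysis by other GIMAP proteins, read 61.6, 38.7, 122.5 and 115 in tumours, against 73.0, 90.8 and 78.5 in pre-transformed cells. Tumours 1 and 2 lay below all pre-transformed signals and tumours 3 and 4 above them. The log2 change was -0.08 ± 0.38 SE (adjusted p = 0.872), an error wide enough to hold a change in either direction. A further Gimap7 probe set was dim on all arrays and not called (log2 change 0.31 ± 0.85 SE). Gimap3, the closest relative of Gimap5, read 35.7, 18.8, 70.6 and 44.6 in tumours, against 16.7, 22.7 and 19.5 in pre-transformed cells. Tumour 2 lay among the dim pre-transformed signals and the other 3 above them. The log2 change of 0.97 ± 0.43 SE did not pass (adjusted p = 0.0788), but without tumour 2 it was 1.31 and was called (adjusted p = 0.00804).

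**Figure D2:**
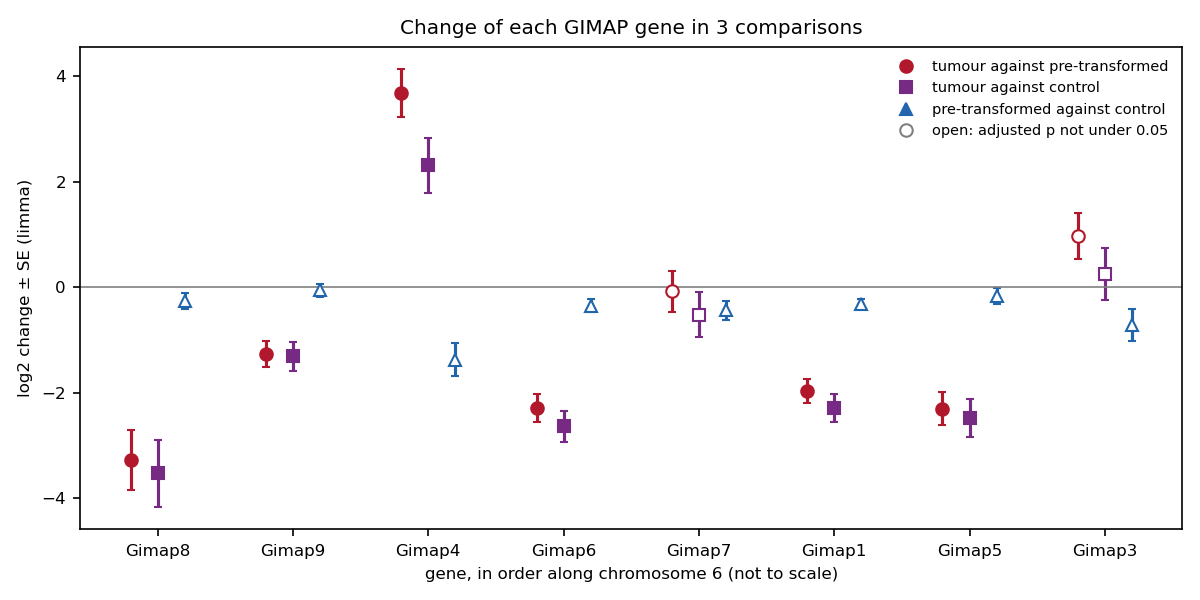
Log2 change of each GIMAP gene with its SE from limma, in gene order along chromosome 6 (not to scale), for the 3 comparisons; filled symbols have an adjusted p under 0.05. In tumours Gimap4 is the called gene above 0 and the genes beside it, Gimap9 and Gimap6, are below 0, while every change before transformation is open.

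Tumours were also set against controls, which share the tumour arrays with the comparison above, so that the results do not stand apart from it. Again 5 members were lower and 1 higher, beside 25.2% and 20.5% of all genes (45.7% in all), and 2 were not called. Signals did not overlap for 6 of the 8 members and 60.5% of all genes. Gimap8 was 11.6-fold lower in tumours than the control signals of 1730.4 and 1310.5 (log2 change -3.53 ± 0.64 SE, adjusted p = 0.00185), and Gimap6 6.24-fold lower than its control signals of 1592 and 1459 (log2 change -2.64 ± 0.29 SE, adjusted p = 0.000153). The changes of Gimap1 and Gimap9 were -2.29 and -1.31 on the log2 scale, with adjusted p-values of 0.000196 and 0.00422. Gimap5, dim in all tumours, was lower by at least 3.25-fold (fitted log2 change -2.47, adjusted p = 0.000591). Gimap4 read 26.8 and 21.9 in controls, and tumours stood at least 2.94-fold above them (log2 change 2.31 ± 0.52 SE, adjusted p = 0.00557). That call was lost without control 2 (adjusted p = 0.0507) and with a common floor of 39.7 under all signals (adjusted p = 0.0621). Gimap7 and Gimap3 had log2 changes of -0.52 ± 0.43 SE and 0.25 ± 0.49 SE and were not called (adjusted p = 0.341 and 0.694).

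Sorted cells with and without CD4Cre show GIMAP levels ahead of any tumour. They differ in both the Cre recombinase and active β-catenin, which cannot be told apart here. This comparison shares the control arrays with the one of tumours and controls. No GIMAP gene was called by limma, where 0.524% of all genes were called lower and 1.11% higher (1.63% in all). All 8 log2 changes were below 0, from -1.37 to -0.06 with a median of -0.33, beside 46.7% of all genes below 0 and an all-gene median of 0.02. At an unadjusted p under 0.05, 5 of the 8 were lower, against 7.87% of all genes. These were Gimap1, Gimap3, Gimap4, Gimap6 and Gimap7, and the same number had signals that did not overlap, as did 36.3% of all genes.

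The widest of these differences was that of Gimap4, at 10.7, 8.7 and 8.8 in pre-transformed cells against 26.8 and 21.9 in controls. The groups did not overlap, but every signal was dim and no fold is given (log2 change -1.37 ± 0.32 SE, adjusted p = 0.0821). Its further probe set read 13.3, 4.7 and 7.7 in pre-transformed cells and 13.9 and 10 in controls, and there the groups did overlap. Gimap3 read 16.7, 22.7 and 19.5 in pre-transformed cells and 40.8 and 25.2 in controls, again all dim. Among the bright members, Gimap1 read 509, 547 and 564 in pre-transformed cells and 709 and 640.4 in controls (log2 change -0.32 ± 0.10 SE, adjusted p = 0.167). For Gimap6 and Gimap7 the log2 changes were -0.35 ± 0.12 and -0.44 ± 0.18 SE, with adjusted p-values of 0.182 and 0.246. Gimap8, Gimap5 and Gimap9 overlapped between the groups, with log2 changes of -0.26, -0.17 and -0.06. With array weights Gimap4 was called as lower (adjusted p = 0.0492), and with the common floor its change was 0.00.

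**Figure D3:**
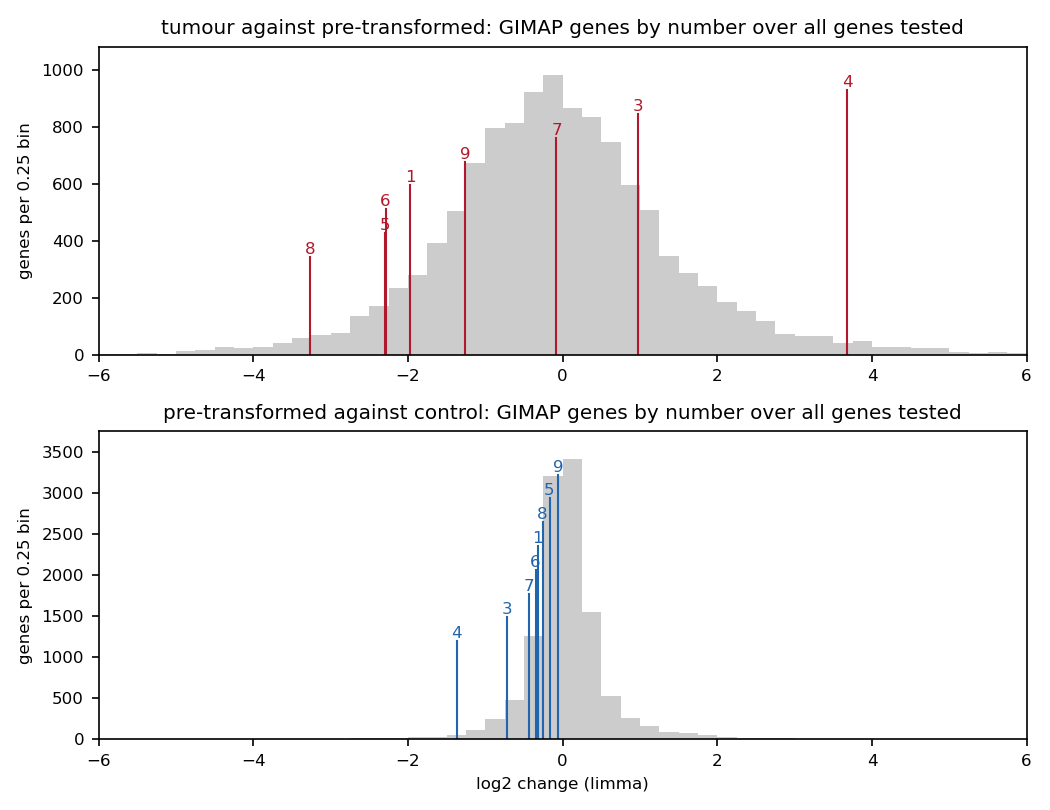
Log2 changes of the GIMAP genes (lines, labelled by gene number) over the distribution of all 11644 genes tested (grey bars, genes per 0.25 bin), for tumours against pre-transformed cells (top) and pre-transformed cells against controls (bottom). The members spread from -3.27 to 3.68 in the first, the highest (Gimap4) being a fitted value against dim signals, and lie from -1.37 to -0.06 in the second.

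Tumours differed among themselves more than sorted cells did. The SD of members was 0.47 to 1.31 on the log2 scale among tumours (median of all genes 0.42), 0.07 to 0.22 among pre-transformed arrays (0.19) and 0.02 to 0.49 between controls (0.12). Tumour 2 was the lowest tumour for 8 of the 11 probe sets, and tumours 3 and 4 were the highest for 6 and 5. The array of tumour 2 had the lowest median and 65th percentile of the tumour arrays, 10.7 and 28.5. On the other tumour arrays these were 13.7 to 15.2 and 35.7 to 40.5. The part of this array-wide level in its low signals was not tested. Tumour 2 also stood apart in the markers of other cells. The summed signal of 10 myeloid markers was 166 in tumour 2 and 3238 to 3619.9 in the other tumours, against 159 to 293 in pre-transformed cells and 146 to 188 in controls. The macrophage gene Lyz2 read 3.1 in tumour 2, below each sorted array, and 1376 to 1741 in the other tumours. Not every myeloid marker did so: Itgam read 113 in tumour 2 and 23.4 to 57.7 in the other tumours, against 33 to 53.4 in pre-transformed cells and 4.4 and 10.8 in controls.

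The sum of 6 B cell markers was 25.1 in tumour 2 and 348 to 490.5 in the others, against 227 to 239 in pre-transformed cells and 259.9 and 286 in controls. Most of the sum in sorted cells was Cd79b, which read 1.3 in tumour 2 and 73.6 to 108.5 in the other tumours, against 196 to 215 in pre-transformed cells and 235 and 254 in controls (log2 change -2.78, not called). Without Cd79b, left out after its values were seen, the sum was 23.8 in tumour 2 and 275 to 382 in the other tumours, against 23.6 to 31.1 in pre-transformed cells and 24.8 and 31.7 in controls.

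With tumour 2 as the only tumour, the 5 genes called lower were lower there too, with log2 changes against pre-transformed cells of -4.33 for Gimap8, -3.19 for Gimap5, -3.04 for Gimap6, -2.47 for Gimap1 and -1.15 for Gimap9. This fit has no replicate tumour and takes the spread from the sorted groups, which varied less than tumours did. Its changes are therefore given without a test, and that of Gimap5 rests on a dim signal of 11.4. Tumour 2 was chosen after its marker values were seen. Gimap4 was higher there, at a log2 change of 2.43 against pre-transformed cells and 1.06 against controls. Its signal of 50.5 in tumour 2 was below the 110.5 in tumour 1, the next lowest, and without tumour 2 its fitted change was 4.10. In tumour 2 Gimap7 was lower than in pre-transformed cells, at -1.06, and its changes in tumours 1, 3 and 4 were -0.38, 0.61 and 0.52. The part of other cells in the GIMAP signals of any tumour was not tested.

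**Figure D4:**
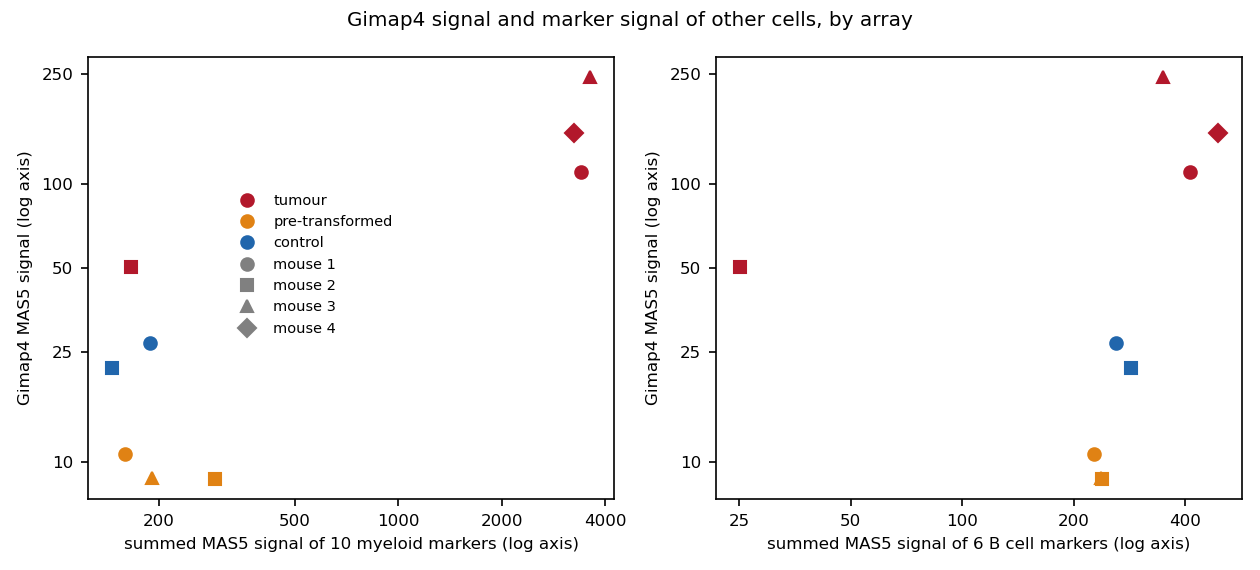
Gimap4 signal against the summed signal of 10 myeloid markers (left) and 6 B cell markers (right) on each of the 9 arrays, all axes logarithmic. Tumours 1, 3 and 4 have high marker sums and Gimap4 at 110.5 to 243, while tumour 2 has marker sums of 166 and 25.1 and Gimap4 at 50.5, above the sorted arrays, whose B cell sums are mostly Cd79b.

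Endothelial, NK cell and stromal markers were mostly dim. Of 10 endothelial markers 3 passed the filter, and 8 were dim on every tumour array, 9 on every pre-transformed array and 8 on every control array. Their sums were 189 to 397 in tumours, 187 to 240.0 in pre-transformed cells and 193 and 233 in controls, most of it Pecam1 on each array. Of those tested, Egfl7 was called higher and Eng lower in tumours against controls. Against pre-transformed cells 1 was called higher, Egfl7, whose pre-transformed signals were all dim. There Eng, dim in both groups, was not called (log2 change -2.07, adjusted p = 0.0542), nor was Pecam1 (log2 change 0.40). The sum of 5 NK cell markers was 121 to 172 in tumours, 375 to 641 in pre-transformed cells and 574 and 624 in controls, and 1 of 4 tested was called lower (Gzma). Gzma made up most of the sum in each sorted group. The other 3 tested were dim in both groups and not called, with log2 changes above 0 (Nkg7 2.02, Klrd1 1.39, Klrk1 2.07), so that the median of the 4 was 1.70. Without Gzma, also left out after its values were seen, the NK cell sum was 7.9 in tumour 2 and 62.3 to 93.4 in the other tumours, against 11.7 to 17.9 in pre-transformed cells and 7.2 and 11.5 in controls. Of 6 stromal markers 5 were tested and 1 was called higher, Dcn, which was dim in both groups, with sums of 37.8 to 128 in tumours, 29.6 to 39.6 in pre-transformed cells and 32.9 and 34.9 in controls. Of 10 myeloid markers 2 were called higher (S100a8 and S100a9), as were 2 of 5 B cell markers tested (Ms4a1 and Ebf1). Ebf1 was dim in both groups. Of all genes 23.9% were called higher and 31.0% lower in tumours against pre-transformed cells. Of 11 thymocyte identity genes 10 were called lower and 0 higher in tumours against pre-transformed cells, with a median log2 change of -1.45. The GIMAP falls thus stood beside falls of T cell genes such as Cd3e (log2 change -1.96) and Cd3g (-1.45). Cd4 went the other way, at a log2 change of 0.31 (not called). Against controls Cd4 was called higher in tumours (log2 change 0.77, adjusted p = 0.0158).

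The pattern of each member over the 9 arrays was set against all other genes tested, as the root mean squared difference of log2 signals after centring each gene on its mean. For Gimap6, the brightest member, the nearest gene of all was Gimap5, at 0.16, followed by Fam189b and Vav2, both at 0.21. Vav2 was also the nearest gene to Gimap5, and Gimap6 the next. The Gimap5 signals in tumours were all dim. Gimap6 stood here by its bright probe set, and the fainter one, which fell by more, was not compared. For the other members, the nearest fellow member ranked from 102 (Gimap5 for Gimap1) to 3885 (Gimap1 for Gimap9). For Gimap4, the called member with the largest fitted log2 change in the gene-level fit (a value set against dim signals), the nearest were Sh2d6, Ifitm6 and Runx3, at 0.56, 0.57 and 0.58. Sh2d6 was dim on every array. Of these Runx3, a transcription factor of CD8 T cells and also a member of the maturation list, read 223, 62.8, 276 and 169.7 in tumours, against 24.5, 27.5 and 26.9 in pre-transformed cells and 32.2 and 29.8 in controls. Like Gimap4 it was lowest in tumour 2 among tumours. All these distances share the same 9 arrays and the contrast of labelling between tumours and sorted cells.

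The genes that flank the family did not follow it as a block either. Of the 8 nearest protein-coding genes on each side in RefSeq, 12 of 16 were named on the array and 8 tested. In tumours against pre-transformed cells 3 were lower and 1 higher, beside 31.0% and 23.9% of all genes. The 3 lower genes were all on the side of Gimap8. They were Lrrc61, at least 3.61-fold, Zfp775 (log2 change -1.51, adjusted p = 0.0364) and Repin1, which was dim in both groups. Sspo and Zfp467, on that side too, were tested and not called. On the side of Gimap3, Tmem176b and Tmem176a, the nearest genes, were not called with all 4 tumours (log2 changes 0.25 and -0.30), and tumour 2 decided both values. Tmem176b read 163, 8.3, 142 and 114 in tumours 1 to 4, against 69.7, 41.7 and 66.2 in pre-transformed cells. Tmem176a read 74.7, 8.7, 50.3 and 51.1 in tumours, against 50.5, 33.4 and 51.8 in pre-transformed cells. Without tumour 2 the log2 change of Tmem176b was 1.26 and was called (adjusted p = 0.00199), and that of Tmem176a was 0.38 and was not (adjusted p = 0.246). Gpnmb, a macrophage gene, was higher by at least 2.01-fold (adjusted p = 0.0194), against dim pre-transformed signals of 12.7, 4.1 and 5. It read 6.2 in tumour 2 and 159.6 to 369 in the other tumours. Its fitted log2 changes, 3.78 over all tumours and 5.05 without tumour 2, rest on those dim signals and give no size.

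Genes linked to GIMAP proteins were counted in tumours against pre-transformed cells, beside 31.0% of all genes lower and 23.9% higher. Of 6 tested apoptosis genes whose products have been tied to GIMAP proteins, 3 were lower and 0 higher, with a median log2 change of -0.77. They were Bcl2l1, which keeps DP cells alive (245 in tumours and 907 in pre-transformed cells, adjusted p = 0.00153), and the proapoptotic Bad and Bak1 (log2 changes -0.95 and -0.86). Of 9 ATG8 and autophagy genes 5 were lower and 2 higher, with a median of -0.37. Gabarapl2, the ATG8 gene whose product binds GIMAP6, had a log2 change of -0.90 with an adjusted p of 0.000394, Map1lc3a one of -2.41 and Atg7 one of 0.88. Of 8 signalling genes linked to Gimap5, 5 were lower and 0 higher, with a median of -1.05. Gsk3b, which encodes a kinase that marks β-catenin for destruction, fell by 1.95 on the log2 scale with an adjusted p of 5.83e-06 and Foxo3 and Foxo4, which encode FOXO transcription factors, fell by 1.61 and 2.14. Ctnnb1, which encodes β-catenin itself, read 2241 to 3726 in tumours, 2523 to 2775 in pre-transformed cells and 2421 and 2753 in controls and was not called.

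Of 11 T lineage transcription factors 8 were lower and 0 higher, with a median of -1.02. They included Notch1, lower by at least 12.9-fold, Runx1 (log2 change -2.14, adjusted p = 0.000568) and Gata3 (-1.59, adjusted p = 0.00256). Of 13 genes of late maturation and egress of T cells 4 were higher and 3 lower, with a median of 0.21. Runx3 was higher by at least 3.66-fold (adjusted p = 0.000729), and Cd5 and Ccr9 were lower, by log2 changes of -1.31 and -1.72. Interferon-inducible GTPases, another family of immune GTP-binding proteins, were lower in 5 of 9 and higher in 0, with a median of -2.54, Igtp at a log2 change of -3.75 among them. In pre-transformed cells against controls 0 genes of the apoptosis, ATG8, Gimap5-linked, transcription factor, maturation, thymocyte identity and flanking lists were called by limma, 1 interferon-inducible GTPase gene was lower, and of the cell type markers 1 myeloid gene was higher.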

How the data were processed

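Gene expression was read on 9 Affymetrix arrays, 1 per mouse. The deposited values are signal intensity, linear and 1 per probe set, which the authors made with MAS5 per the submitters' processing notes (no version is given there). Detection calls were not used. Checked on the values, each array's mean was 100 once the lowest and highest 2% of its 45101 probe sets were left out.

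Signals were taken to log2, with 0 set to 0.1. Without the 64 control probe sets, those at or above their array's median on at least 2 arrays were kept (26421). Symbols came from the platform annotation through Entrez identifiers (34945 probe sets named 1 gene, 932 several, 9160 none). A gene was its kept probe set of highest mean. Limma 3.58.1 in R 4.3.3 was used (lmFit, eBayes with trend, Benjamini-Hochberg over all genes tested), on all 9 arrays for the tumour comparisons and on the 5 sorted arrays for pre-transformed against control. The script was tested on simulated data. Group values are geometric means with SD on the log2 scale. Where all arrays of a group were dim, the fold was set against the 65th percentile of those arrays or the signal itself if higher, and is given as at least a value. Replicate numbers follow the order in which the mice are listed, name different mice and pair nothing.

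Named were all members, up to 4 genes of smallest p from each of 13 lists (thymocyte identity, late maturation and egress, apoptosis partners, ATG8 and autophagy, Gimap5-linked signalling, T lineage factors, interferon-inducible GTPases, endothelial, myeloid, B cell, NK cell and stromal markers, flanking genes) and the 3 genes nearest in pattern to the brightest member and the member with the largest fitted change. Lyz2, Itgam, Cd4, Cd8a, Ctnnb1, Tmem176a and Tmem176b were added after their values were seen. Members and lists were chosen with earlier results of these data known. Promoter windows are from RefSeq (GRCm38.p6). Python 3.11.15 and matplotlib 3.10.9 drew the plots.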

Additional observations from a re-analysis of the deposited data

Results flagged for a closer look

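The fainter Gimap7 probe set read 1.8 in tumour 1 and 16.1, 18.7 and 16.8 in tumours 2, 3 and 4. The gap from tumour 1 to the nearest of the others took 0.936 of the range on the log2 scale, above Dixon's 95% value of 0.829 for 4 samples. All these signals were dim, and the brighter Gimap7 probe set placed tumour 2 lowest, at 38.7, and tumour 1 at 61.6. Gimap5 in tumour 2, at 11.4, came to 0.829 and did not exceed that value. Of the 11 probe sets examined in this way this was the 1 that passed. Chance alone marks about 1 group in 20.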

How the results depend on the processing

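Of 13 alternatives, 9 single arrays left out and 2 settings chosen after seeing the data (centring on all probe sets, and tumour 2 as the only tumour), the calls of Gimap8, Gimap6, Gimap5, Gimap1 and Gimap9 as lower in tumours held in each of 24 against either sorted group. Their smallest falls were -2.87, -2.01, -1.39, -1.68 and -0.97 against pre-transformed cells. Gimap4 was called higher than in pre-transformed cells in 24 of 24 (log2 change 1.59 to 4.10) and than in controls in 22 of 24 (1.06 to 2.72). The fit with tumour 2 alone, 1 of the 24, has no spread among tumours behind its calls. The count of higher GIMAP genes against pre-transformed cells was 2, with Gimap3 added, under quantile normalization, median centring and array weights, and 1 to 2 with 1 array left out. Against controls it was 0 with the common floor and 0 to 1 with 1 array left out. Before transformation 1 gene, Gimap4, was called lower with array weights. Against pre-transformed cells the change of Gimap7 turned to 0.23 with quantile normalization, 0.21 with median centring, 0.11 with the mean of probe sets, 0.05 with array weights, 0.02 without tumour 1, 0.25 without tumour 2 and 0.01 without pre-transformed 2 (-0.31 to 0.25 over arrays left out), and that of Gimap3 to -0.05 with tumour 2 alone. Against controls Gimap7 turned to 0.08 with the mean of probe sets, and Gimap3 to -0.07 with the replicate block, -0.14 with centring on all probe sets, -0.77 with tumour 2 alone, -0.05 without tumour 3 and -0.10 without control 2 (-0.10 to 0.60 over arrays left out). Gimap9 turned to 0.02 before transformation without pre-transformed 1 (-0.18 to 0.02 over arrays left out). With tumour 2 alone S100a9 and Gpnmb turned to -0.04 each and Tmem176b to -2.80. Tmem176b also turned to -0.01 with centring on all probe sets and to -0.17 and -0.11 without tumour 1 and 3 (-0.17 to 1.26 over arrays left out), and Tmem176a to 0.16 with the common floor and 0.38 without tumour 2 (-0.66 to 0.38). Beyond the settings whose construction shows it, the cause was not tested.

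With the replicate number as a block, the member counts did not move: 5 lower and 1 higher in each tumour comparison, and 0 before transformation. Deviations of same-numbered arrays correlated at -0.02 to 0.08 over 7 pairs. The labels give each mouse a number of its own, and the replicate numbers used here only follow the order of listing. Neither result can therefore test a pairing. Over all genes the counts before transformation were 129 higher and 61 lower, with 1 and 0 without the trend and 254 and 177 with array weights at the extremes. Against controls 2387 genes were higher and 2936 lower in tumours, or 1177 and 1412 without control 1. Centring on all probe sets gave 1877 higher and 4279 lower genes against pre-transformed cells, median centring 3458 and 2613, beside 2785 and 3607. With 1 control left, that array is assumed to vary like the others. Signals near background limit Gimap3, Gimap4 in sorted cells and Gimap5 in tumours.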
